A study of Homo sapiens with 6 samples.

Results

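The genes described here form 1 module: NRF2 and its repressor KEAP1, established NRF2 target genes, and the glutathione, thioredoxin and peroxiredoxin enzymes that remove peroxides. The module was defined by a list of 37 gene symbols and not by a threshold on the values. Of these, 36 were matched to an identifier in the count tables, which hold 58302 identifiers in all, and 35 passed the filter on low counts that left 15075 genes for testing. SOD2, the mitochondrial superoxide dismutase, was not matched and is not analysed here, and AKR1B10, with no more than 2 counts per library, was not tested.

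RNA-sequencing was performed on MDA-MB231 (MDA-MB-231), a human cell line from a triple-negative breast carcinoma, to ask how the long non-coding RNA *Smyca* shapes the transcriptome. In both groups the cells stably carried a pLKO.1 shRNA vector, with a control shRNA in 3 libraries and *Smyca* shRNA #1 in the other 3. A single *Smyca* shRNA was sequenced, so effects of losing *Smyca* and other effects of that shRNA cannot be told apart. The study calls the repeats biological, but the labels do not say that they were separate cultures, so the p-values measure the spread between these libraries.

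NRF2, encoded by *NFE2L2*, is a transcription factor that KEAP1 holds in the cytoplasm and hands to the CUL3 ubiquitin ligase for degradation. Oxidants and electrophiles modify KEAP1 cysteines, NRF2 then escapes degradation, pairs with a small MAF protein and binds antioxidant response elements in genes for glutathione synthesis, thiol recycling, NADPH supply, quinone reduction and iron storage. NRF2 is regulated mainly through protein stability, and its targets NQO1, GCLM, TXNRD1 and SRXN1 are commonly read as its output.

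Library totals lay between 14999307 and 16501085 counts. *Smyca*, annotated as *MIR23AHG*, measured 24.99, 19.5 and 22.0 normalized CPM (counts divided by the TMM-scaled library size, on the usual CPM scale) in the control libraries and 10.5, 6.97 and 5.61 in the knockdown libraries. Of the luminal breast markers, ESR1, PGR and FOXA1 had at most 3 counts in each library. GATA3 had 19 to 61 counts, TFF1 17 to 44 and XBP1 1589 to 2713. The libraries did not fully match the label in other markers. KRT8 measured 4249 to 7408 normalized CPM, CDH1 71.5 to 300.1 and the gut and liver transcription factor HNF4A 65.4 to 194.1. The epithelial markers GRHL2, with 0 to 17 counts per library, and RAB25, with 0 to 7, were near absent. Mesenchymal markers of the line included S100A4 at 395.8 to 631.5 normalized CPM, VIM at 71.2 to 305 and ZEB1 at 6.22 to 12.9. SPARC had 0 to 11 counts per library and was not tested. Of the 15 tested, 13 were higher in the control, 9 of them at an unadjusted p under 0.05. In bulk RNA, fewer cells of a type and less RNA per cell cannot be told apart. Control replicate 2 carried an FPKM column that followed its own counts within 1% in 1.65% of genes, against 100% in each other library. The reads recovered from it resembled control replicate 3 (r = 0.995 across genes) more than the library's own counts (r = 0.956). Genes are not independent replicates, so these r values only describe the columns. Fits with the recovered FPKM reads therefore held 2 nearly alike control columns and are not an independent check. The counts of control replicate 2 were used below. Members that its other column moves across a threshold, or from separate to overlapping groups, are named where the counts of members are given.

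To show the sequences on which NRF2 could act near the members of interest, the 250 bases before each RefSeq transcription start (GRCh38.p14) were searched on both strands for the core of the antioxidant response element, TGACNNNGC. Of the 28 listed members with a RefSeq promoter entry, 27 of which were measured (SOD2 was the other), 7 (25%) held the core, beside 13.2% of 27305 genes and 27% of 89 other pathway genes with an entry. The AP-1 motif TGACTCA, which forms part of the core when GC follows it, was present in 3 of the 28 (10.7%) and in 5.19% of all genes, and in AIFM2 and GSTP1 the 2 motifs overlapped. The windows below are those of KEAP1, GPX2, PGD and OSGIN1, which were among the members with the smallest p-values, and of GCLM and TXNRD1, which are standard NRF2 readouts. They are written 5′ to 3′ on the strand of the gene, with the motif in capitals, and show a match of letters only, not a bound site. The window of KEAP1 on the minus strand at chr19:10502784-10502812 and the next at chr19:10502807-10502835 hold 1 core each, GPX2 lies on the minus strand at chr14:64942833-64942893, PGD on the plus strand at chr1:10398837-10398897, GCLM on the minus strand at chr1:93909446-93909474, TXNRD1 on the plus strand at chr12:104215654-104215714 and OSGIN1, with an AP-1 motif and no core, on the plus strand at chr16:83953117-83953175.
KEAP1, nearer core: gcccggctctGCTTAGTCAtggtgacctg
KEAP1, farther core: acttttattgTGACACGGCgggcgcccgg
GPX2: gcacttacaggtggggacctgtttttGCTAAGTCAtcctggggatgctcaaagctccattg
PGD: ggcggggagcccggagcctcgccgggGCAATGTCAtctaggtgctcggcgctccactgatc
GCLM: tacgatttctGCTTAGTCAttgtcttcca
TXNRD1: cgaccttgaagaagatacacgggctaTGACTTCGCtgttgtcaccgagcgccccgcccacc
OSGIN1, AP-1: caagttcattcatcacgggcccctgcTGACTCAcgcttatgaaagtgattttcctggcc

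The GPX2 core began 122 bases before the RefSeq start, the PGD core 201 bases, the TXNRD1 core 99 bases and the GCLM core 34 bases. A further TXNRD1 start, not shown, had a core 102 bases before it. KEAP1 held its cores 31 and 54 bases before the start, inside an exon of GENCODE release 44, whose KEAP1 gene starts farther upstream. AKR1C2, NQO1, SRXN1 and PRDX2 had an entry without the core, whereas PRDX1, SOD1, HMOX1, PRDX6, TXN2, GSS, GSR, FTH1 and AKR1B10 had no entry.

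As a group, the members were slightly higher after *Smyca* knockdown than in the control. The transcript levels of 25 of the 35 tested members (71.4%) were higher in the knockdown, compared with 46.6% of all genes tested, and the median log2 fold change (control over knockdown) was -0.16 in the members and 0.04 in all genes. With library totals in place of TMM scaling, 23 members stayed on that side, beside 39.9% of all genes. There were 28, beside 47.5% of all genes, with the FPKM reads of control replicate 2, since HMOX1, CAT, AKR1C1 and AKR1C3 moved to that side and SLC48A1 left it. The median member deviated from its own mean over the 6 libraries, on the log2 scale, by 0.03 to 0.11 in the knockdown libraries and by -0.12 to -0.03 in the control libraries. The libraries of each group thus lay on the same side, by small steps. The shares and medians above were not matched for abundance, which was higher in the members (median 126 against 20.9 normalized CPM).

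No member met the study's criteria for a DEG, a control/knockdown ratio of at least 1.5 or at most 0.66 with an adjusted p under 0.05 in edgeR's quasi-likelihood test (Benjamini-Hochberg adjusted over all genes), and 4 of all 15075 genes did (0.0265%). At an unadjusted p under 0.05, 6 members (17.1%) were higher in the knockdown, against 8.74% of all genes, and 2 members (5.71%) were higher in the control, against 10.4%. Scaling by library totals left 3 and 2, where 18.9% of all genes passed in either direction. With the FPKM reads of control replicate 2 the numbers were 9 and 1, where 20.4% of all genes passed in either direction: PRDX2 and OSGIN1 no longer passed, and TXNRD1, TXN2, TALDO1 and AIFM2 did. The 6 were KEAP1, GPX2, PGD, SOD1, PRDX1 and PRDX2, and the 2 were OSGIN1 and AKR1C2. DESeq2 called KEAP1, PGD and GPX2 as DEGs among 820 genes (5.44% of all genes). Without control replicate 3, edgeR called KEAP1, OSGIN1, PGD and TXNRD2 among 1628 (10.5%).

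Counting size alone, 4 members (11.4%) had a ratio of at most 0.66, namely KEAP1, GPX2, PGD and SRXN1, where 5.54% of all genes did. KEAP1 left that count with the FPKM reads of control replicate 2. OSGIN1 and AKR1C2 had a ratio of at least 1.5 (5.71%, against 15.6% of all genes). The 3 control and 3 knockdown values did not overlap in 13 members that were higher in the knockdown (37.1%, against 12.5% of all genes) and in 2 that were higher in the control (5.71%, against 12.4%). With the FPKM reads of control replicate 2 these were 12 members (34.3%, against 13.7% of all genes) and 2 members (5.71%, against 14.2%): PRDX2, PRDX6 and GPX1 then overlapped, and TXNRD1 and GSS no longer did. Members were abundant transcripts, with a median of 126 normalized CPM against 20.9 over all genes tested. Among genes with a mean of at least 20 CPM, a minimum set after the values had been seen, 13 of 30 members (43.3%) separated with the knockdown higher, against 19.8% of such genes. In the same range 6 of 30 members (20%) were higher in the knockdown at an unadjusted p under 0.05, against 14.6%. An exact permutation test of 3 against 3 libraries cannot give a p below 0.1, so single genes rest on the edgeR fit across all genes.

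**Figure D1:**
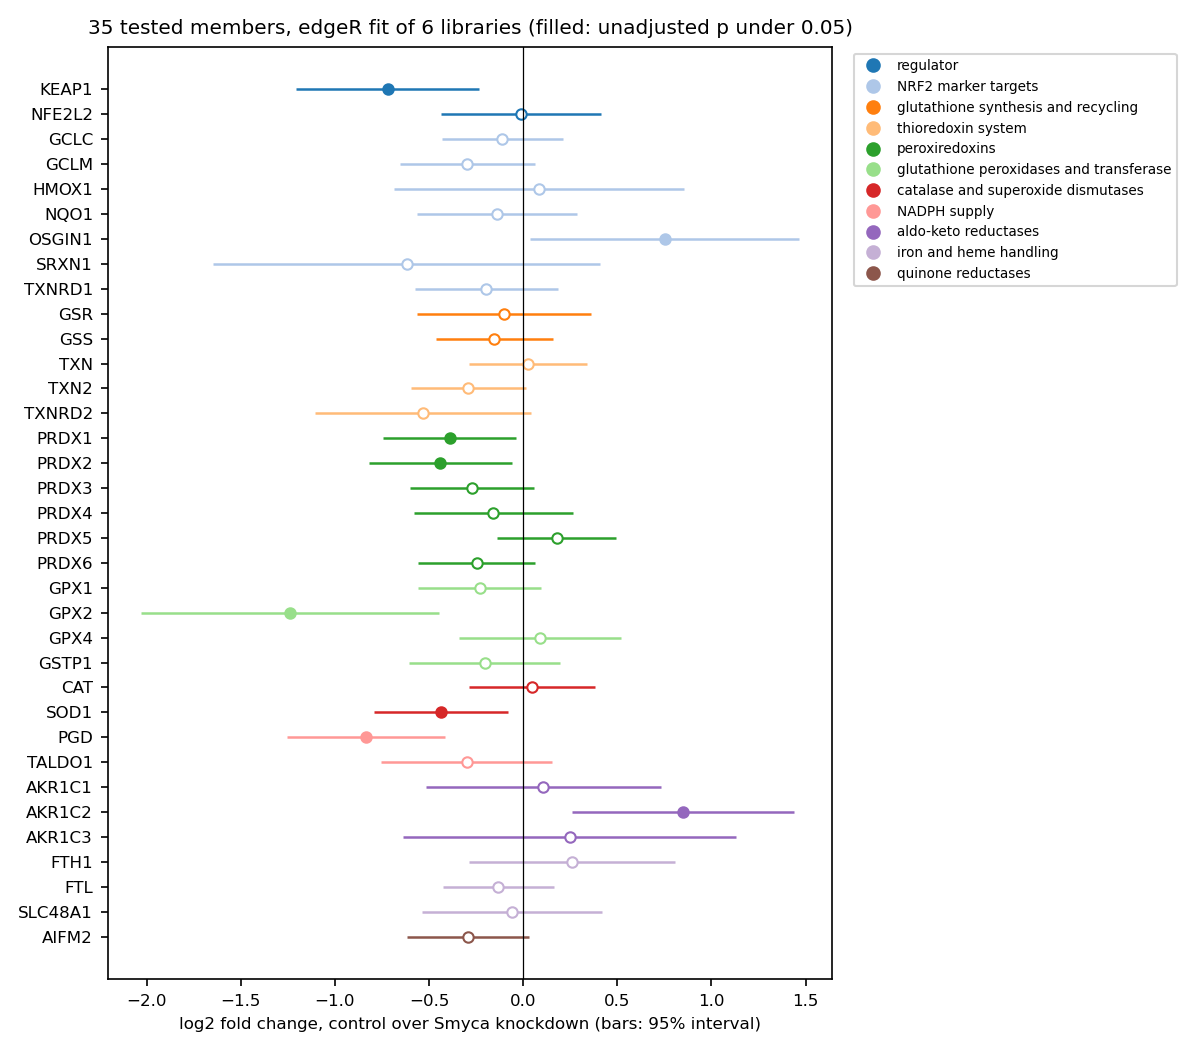
Log2 fold change (control over *Smyca* knockdown, x axis) of the 35 tested members (y axis), coloured by role, from the edgeR fit of 3 control and 3 knockdown libraries; bars are 95% intervals and filled points have an unadjusted p under 0.05. Of the points, 25 lie left of 0, where the knockdown is higher, from GPX2 at -1.24 to NFE2L2 at -0.01, and AKR1C2 lies farthest right at 0.85.

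Of the 2 regulators, KEAP1 was higher in the knockdown, and no direction could be given for NFE2L2. *NFE2L2*, which encodes NRF2, measured 45.9, 43.8 and 39.3 normalized CPM in the control and 54.9, 38.8 and 36.1 in the knockdown. The knockdown libraries lay on both sides of all control libraries, and the log2 fold change was -0.01 with a 95% interval from -0.44 to 0.41 (SE 0.19, edgeR quasi-likelihood adjusted p = 0.979). Its sign turned with library totals (0.05) and with the knockdown library that was left out (-0.14 to 0.19).

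KEAP1, the adaptor that keeps NRF2 unstable, lies on the minus strand of chromosome 19 from 10486125 to 10503558 (GRCh38). It measured 74.4, 66.8 and 110.7 normalized CPM in the control (83.9 ± 23.5, SD, n = 3) and 122.7, 159.2 and 132.8 in the knockdown (138 ± 18.8, SD, n = 3). Every knockdown library exceeded every control library, with control replicate 3 nearest to them. KEAP1 was 1.65-fold higher in the knockdown, with a log2 fold change of -0.72 (SE 0.21, edgeR quasi-likelihood adjusted p = 0.143). Its unadjusted p was under 0.05 in all 13 alternative fits, where the log2 fold change ranged from -0.98, without control replicate 3, to -0.49, with the reads recovered from the FPKM values of control replicate 2.

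Among the marker targets of NRF2, NQO1, a quinone reductase, measured 293, 314 and 223 normalized CPM in the control and 346, 317 and 251 in the knockdown. The ranges overlapped, with control replicate 3 and knockdown replicate 3 lowest, and the log2 fold change was -0.14 (SE 0.19, edgeR quasi-likelihood adjusted p = 0.715). TXNRD1, the cytosolic thioredoxin reductase, measured 155, 172 and 118 in the control and 172, 163 and 174 in the knockdown (log2 fold change -0.20, SE 0.17, edgeR quasi-likelihood adjusted p = 0.547). Its knockdown values sat together near the upper end of the control range, and lay above it with the FPKM reads of control replicate 2 (log2 fold change -0.43). HMOX1, which degrades heme, was low at 5.49, 5.97 and 2.82 in the control and 5.08, 4.56 and 3.83 in the knockdown (log2 fold change 0.08, SE 0.34, edgeR quasi-likelihood adjusted p = 0.911), and the knockdown values lay inside the control range.

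SRXN1, which repairs over-oxidized peroxiredoxins, was the lowest tested member, with 27, 26 and 22 counts in the control and 29, 21 and 61 in the knockdown (1.41 to 1.67 against 1.33 to 4.03 normalized CPM). Its log2 fold change of -0.62 (SE 0.45, edgeR quasi-likelihood adjusted p = 0.482) came from knockdown replicate 3, without which it was -0.03. In GENCODE, 2292 of the 2528 exon bases of SRXN1 are shared with a gene on the same strand, so the assignment of its reads is uncertain. OSGIN1, an oxidative stress-induced growth inhibitor, lies on the plus strand of chromosome 16 from 83931311 to 83966332. It measured 18.6, 12.4 and 8.07 normalized CPM in the control (13.0 ± 5.28, SD, n = 3) and 6.60, 8.36 and 8.25 in the knockdown (7.74 ± 0.99, SD, n = 3). Control replicate 3 fell inside the knockdown range, and OSGIN1 was 1.68-fold higher in the control (log2 fold change 0.75, SE 0.31, edgeR quasi-likelihood adjusted p = 0.241). Without control replicate 1, the highest library, its log2 fold change was 0.41, and with the FPKM reads of control replicate 2 it was 0.62 with an unadjusted p of 0.096 in the edgeR fit.

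Of the 7 marker targets, 5 were higher in the knockdown and 2, OSGIN1 and HMOX1, in the control, though HMOX1 turned sign when the FPKM reads of control replicate 2 were used. OSGIN1 alone had an unadjusted p under 0.05.

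All 4 genes of glutathione synthesis and recycling were slightly higher in the knockdown, and none had an unadjusted p under 0.05. GCLC, the catalytic subunit of glutamate-cysteine ligase, which makes the rate-limiting step, measured 56.3, 51.0 and 53.8 normalized CPM in the control and 61.2, 51.3 and 61.5 in the knockdown (log2 fold change -0.11, SE 0.14, edgeR quasi-likelihood adjusted p = 0.696). Its knockdown replicate 2 lay at the bottom of the control range. GCLM, the modifier subunit of the same enzyme, measured 20.2, 18.9 and 17.6 in the control and 22.2, 23.3 and 24.3 in the knockdown (log2 fold change -0.30, SE 0.16, edgeR quasi-likelihood adjusted p = 0.337). GCLM thus separated the groups completely, by a ratio of 1.23, whereas GCLC did not.

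The 2 subunits also differed in level. On the scale of normalized CPM per kilobase of the authors' gene length (normalized FPKM), GCLC stood at 33.3 ± 1.63 in the control (SD, n = 3) and GCLM at 8.34 ± 0.58. GSS, glutathione synthetase, had a log2 fold change of -0.15 and GSR, glutathione reductase, of -0.10, with 95% intervals that included 0. GSR measured 125, 114 and 73.1 normalized CPM in the control, and its direction rested on control replicate 3, without which the log2 fold change was 0.09.

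In the thioredoxin system, 4 of 5 members were higher in the knockdown, with SRXN1 and TXNRD1 counted here too, and none had an unadjusted p under 0.05, though TXN2 and TXNRD1 did with the FPKM reads of control replicate 2. Over the 13 alternative fits TXNRD2 passed in 4, TXN2 in 2 and TXNRD1 in 1. TXN, cytosolic thioredoxin, changed by 0.02 on the log2 scale with a 95% interval from -0.29 to 0.34. TXN2, its mitochondrial counterpart, measured 107, 99.4 and 99.96 normalized CPM in the control and 115, 132 and 129 in the knockdown, and the groups did not overlap (log2 fold change -0.29, SE 0.13). TXNRD2, the mitochondrial reductase, measured 45.5, 45.2 and 80.4 in the control and 91.6, 89.6 and 66.4 in the knockdown. Control replicate 3 lay within the knockdown range, and the log2 fold change of -0.53 (SE 0.25, edgeR quasi-likelihood adjusted p = 0.288) became -0.87 without that library and -0.22 with the FPKM reads of control replicate 2.

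Peroxiredoxins, which reduce hydrogen peroxide with thioredoxin as the usual donor, were higher in the knockdown in 5 of 6 cases. PRDX1, a cytosolic member on the minus strand of chromosome 1 from 45510914 to 45542732, measured 208, 270 and 264 normalized CPM in the control (247 ± 34.4, SD, n = 3) and 298, 340 and 335 in the knockdown (324 ± 22.6, SD, n = 3). All knockdown libraries exceeded all control libraries (1.31-fold, log2 fold change -0.39, SE 0.16, edgeR quasi-likelihood adjusted p = 0.224). PRDX2, its cytosolic paralog on the minus strand of chromosome 19 from 12796820 to 12801800, measured 95.7, 112 and 123 in the control (110 ± 13.8, SD, n = 3) and 148, 172 and 128 in the knockdown (149 ± 22.1, SD, n = 3). The groups did not overlap, with control replicate 3 and knockdown replicate 3 closest (1.36-fold, log2 fold change -0.44, SE 0.17, edgeR quasi-likelihood adjusted p = 0.207). With the FPKM reads, control replicate 2 measured 133.9 and lay above knockdown replicate 3, so that PRDX2 overlapped and no longer had an unadjusted p under 0.05.

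PRDX3, the mitochondrial peroxiredoxin, and PRDX6, which uses glutathione, also separated without overlap at log2 fold changes of -0.27 and -0.25, and PRDX4 of the endoplasmic reticulum overlapped at -0.16. With the FPKM reads control replicate 2 measured 159.1 for PRDX6, just above the lowest knockdown library. PRDX5 went the other way, with 245, 234 and 283 normalized CPM in the control and 228, 223 and 223 in the knockdown. Its groups did not overlap either, but the difference was small (log2 fold change 0.18, SE 0.14, edgeR quasi-likelihood adjusted p = 0.509). PRDX1 had an unadjusted p under 0.05 in 9 of the 13 alternative fits and PRDX2 in 7.

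**Figure D2:**
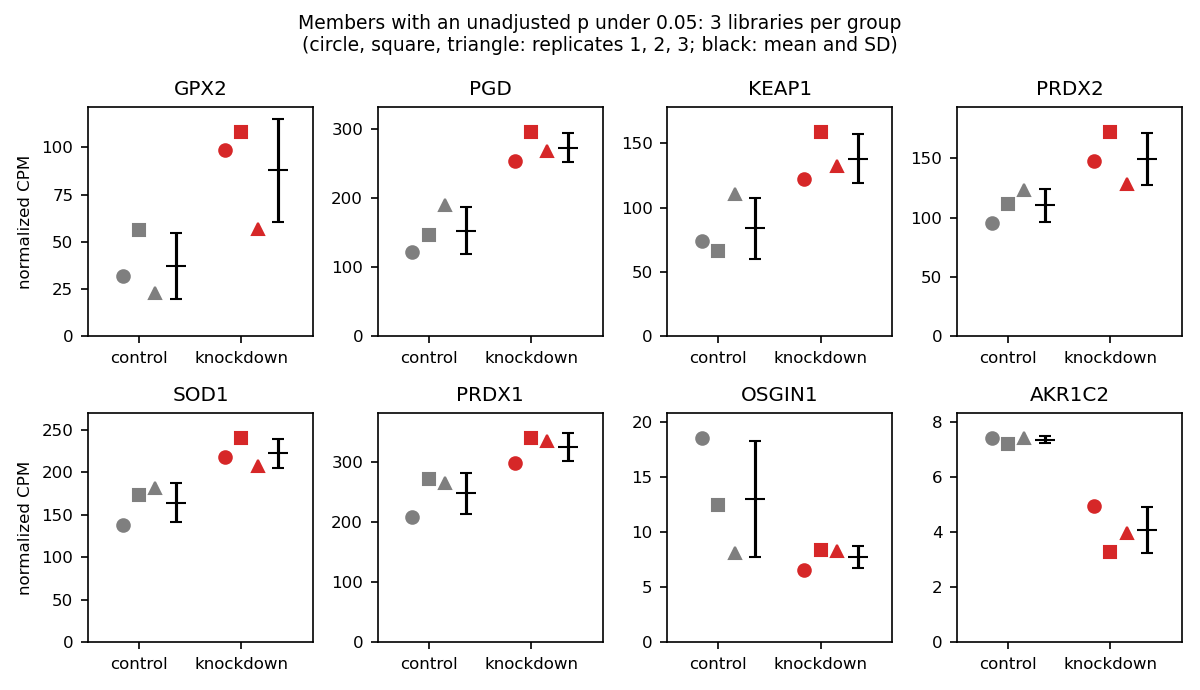
Normalized CPM (y axis, from 0) of the 8 members with an unadjusted p under 0.05 in the 3 control libraries (grey) and the 3 *Smyca* knockdown libraries (red); symbols mark the replicate number and black bars the mean and SD. In all except OSGIN1 the groups do not overlap, and GPX2 in knockdown replicate 3 (57.0) sits just above control replicate 2 (56.4).

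Of the glutathione peroxidases, GPX2 showed the largest fold difference of the tested members, and GPX1 and GPX4 differed little. GPX2, best known as the gastrointestinal form and an NRF2 target, lies on the minus strand of chromosome 14 from 64939152 to 64942746. It measured 32.1, 56.4 and 23.2 normalized CPM in the control (37.2 ± 17.2, SD, n = 3) and 98.5, 108 and 57.0 in the knockdown (87.9 ± 27.2, SD, n = 3). Knockdown replicate 3 was scarcely above control replicate 2, so the groups were separated by a narrow margin. GPX2 was 2.36-fold higher in the knockdown, with a log2 fold change of -1.24 and a 95% interval from -2.03 to -0.45 (SE 0.35, edgeR quasi-likelihood adjusted p = 0.134). The unadjusted p was under 0.05 in all 13 alternative fits, with log2 fold changes from -1.69, with the FPKM reads of control replicate 2, to -0.99, without control replicate 3.

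The summed level of gut and hepatic epithelium markers was higher in the knockdown, like GPX2, although the listed genes were split. It was 838, 839 and 563 normalized CPM in the control and 1026, 1050 and 884 in the knockdown, with control replicate 3 lowest, as for GPX2. Of 17 listed markers 9 were tested, 5 were higher in the knockdown and 4 in the control. VIL1, the brush border protein villin, with HNF4A made up most of the sum and measured 337, 343 and 221 in the control and 457, 501 and 422 in the knockdown. The defining markers CDX1, APOA1, APOB, FGB and AFP had at most 3 counts in every library. LGALS4, a gut galectin, was higher in the control at an unadjusted p under 0.05. The part of these genes in the GPX2 difference was not tested.

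GPX1, the ubiquitous cytosolic peroxidase, separated without overlap but by a small step, from 334 to 402 normalized CPM in the control and from 406 to 442 in the knockdown (log2 fold change -0.23, SE 0.14). With the FPKM reads control replicate 2 measured 418.5 for GPX1 and the groups overlapped. GPX4, which reduces lipid hydroperoxides in membranes, measured 323, 291 and 461 in the control and 345, 341 and 327 in the knockdown (log2 fold change 0.09, SE 0.19, edgeR quasi-likelihood adjusted p = 0.822). By the counts, control replicate 3 stood apart from all other libraries in GPX4, and without it the log2 fold change was -0.14. With the FPKM reads control replicate 2 measured 487.2 for GPX4, near control replicate 3. GSTP1, a glutathione transferase that is silenced in many luminal breast cancers, had the highest level of all members at 812 ± 170 normalized FPKM in 3 control libraries and 936 ± 56.5 in 3 knockdown libraries (mean ± SD). Its fold change was -0.20 on the log2 scale with an interval that included 0.

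SOD1, the cytosolic superoxide dismutase, lies on the plus strand of chromosome 21 from 31659666 to 31668931. It measured 138, 173 and 182 normalized CPM in the control (164 ± 23.1, SD, n = 3) and 219, 241 and 207 in the knockdown (222 ± 17.1, SD, n = 3). The groups did not overlap, and SOD1 was 1.35-fold higher in the knockdown (log2 fold change -0.44, SE 0.16, edgeR quasi-likelihood adjusted p = 0.191). CAT, the peroxisomal catalase that removes the hydrogen peroxide that SOD1 forms, differed by 0.05 on the log2 scale with a 95% interval from -0.29 to 0.38. Its level was 36.2 ± 3.90 normalized FPKM in the control, compared with 158 ± 22.2 for SOD1.

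Both genes for NADPH supply were higher in the knockdown. PGD, 6-phosphogluconate dehydrogenase of the oxidative pentose phosphate pathway, had the smallest p of all members. It lies on the plus strand of chromosome 1 from 10398592 to 10420511 and measured 123, 148 and 190 normalized CPM in the control (153 ± 34.0, SD, n = 3) and 255, 297 and 269 in the knockdown (274 ± 21.3, SD, n = 3). The lowest knockdown library was well above the highest control library, which was replicate 3. PGD was 1.78-fold higher in the knockdown, with a log2 fold change of -0.84 and a 95% interval from -1.25 to -0.42 (SE 0.18, edgeR quasi-likelihood adjusted p = 0.111). In all 13 alternative fits its unadjusted p was under 0.05, with log2 fold changes from -1.02 to -0.70 and adjusted p-values from 0.0038, by DESeq2, to 0.44, by an edgeR quasi-likelihood fit.

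TALDO1, transaldolase of the non-oxidative branch, measured 184, 209 and 146 in the control and 227, 261 and 175 in the knockdown. Within each group replicate 3 was lowest, the groups overlapped and the log2 fold change was -0.30 (SE 0.20, edgeR quasi-likelihood adjusted p = 0.438), or -0.48 with the FPKM reads of control replicate 2. TKT, transketolase, and ME1, malic enzyme, which were not members, had log2 fold changes of -0.10 and -0.23, and neither had an unadjusted p under 0.05. Both were picked for their place in NADPH supply after their values had been seen.

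The aldo-keto reductases, which reduce aldehydes and steroids and are induced by NRF2 in many cancer cells, had positive log2 fold changes in all 3 tested members, although AKR1C2 alone had an unadjusted p under 0.05 and AKR1C1 and AKR1C3 turned sign with the FPKM reads of control replicate 2. AKR1C2, on the minus strand of chromosome 10 from 4987775 to 5018031, measured 7.405, 7.20 and 7.43 normalized CPM in the control (7.34 ± 0.13, SD, n = 3) and 4.95, 3.29 and 3.96 in the knockdown (4.07 ± 0.83, SD, n = 3). The control libraries were nearly identical and all above the knockdown. AKR1C2 was 1.80-fold higher in the control (log2 fold change 0.85, SE 0.26, edgeR quasi-likelihood adjusted p = 0.147), with an unadjusted p under 0.05 in all 13 alternative fits and log2 fold changes from 0.71 to 1.008.

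AKR1C1 and AKR1C3, its neighbours on chromosome 10, had log2 fold changes of 0.11 and 0.25 with intervals that included 0. AKR1C3 was uneven in the control, at 26.6, 35.8 and 10.2 normalized CPM, against 24.0, 19.6 and 17.6 in the knockdown, and without control replicate 2 its log2 fold change was -0.15. The 3 genes are close paralogs whose reads can be assigned to the wrong copy, so values of single copies are uncertain. AKR1B10 had 1, 2 and 1 counts in the control and 0, 0 and 1 in the knockdown.

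Genes for iron and heme handling did not move together. FTH1, the ferritin heavy chain, measured 478, 299 and 242 normalized CPM in the control and 306, 276 and 271 in the knockdown, and its log2 fold change of 0.26 (SE 0.24) became -0.07 without control replicate 1. FTL, the ferritin light chain, was among the steadiest members, with 498 to 530 in the control and 553 to 590 in the knockdown (log2 fold change -0.13, SE 0.13). Its groups did not overlap. SLC48A1, the heme transporter HRG1, differed by -0.06 with an interval from -0.54 to 0.42, and turned sign with library totals.

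AIFM2, also called FSP1, reduces coenzyme Q at membranes and limits lipid peroxidation beside GPX4. It measured 90.8, 86.5 and 79.2 normalized CPM in the control and 92.7, 113 and 109 in the knockdown, without overlap (log2 fold change -0.29, SE 0.14, edgeR quasi-likelihood adjusted p = 0.305). FTH1, FTL, PRDX1, TXN and GPX1 have many processed pseudogenes, and reads that fit both a gene and a pseudogene could have been left out or assigned to either.

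**Figure D3:**
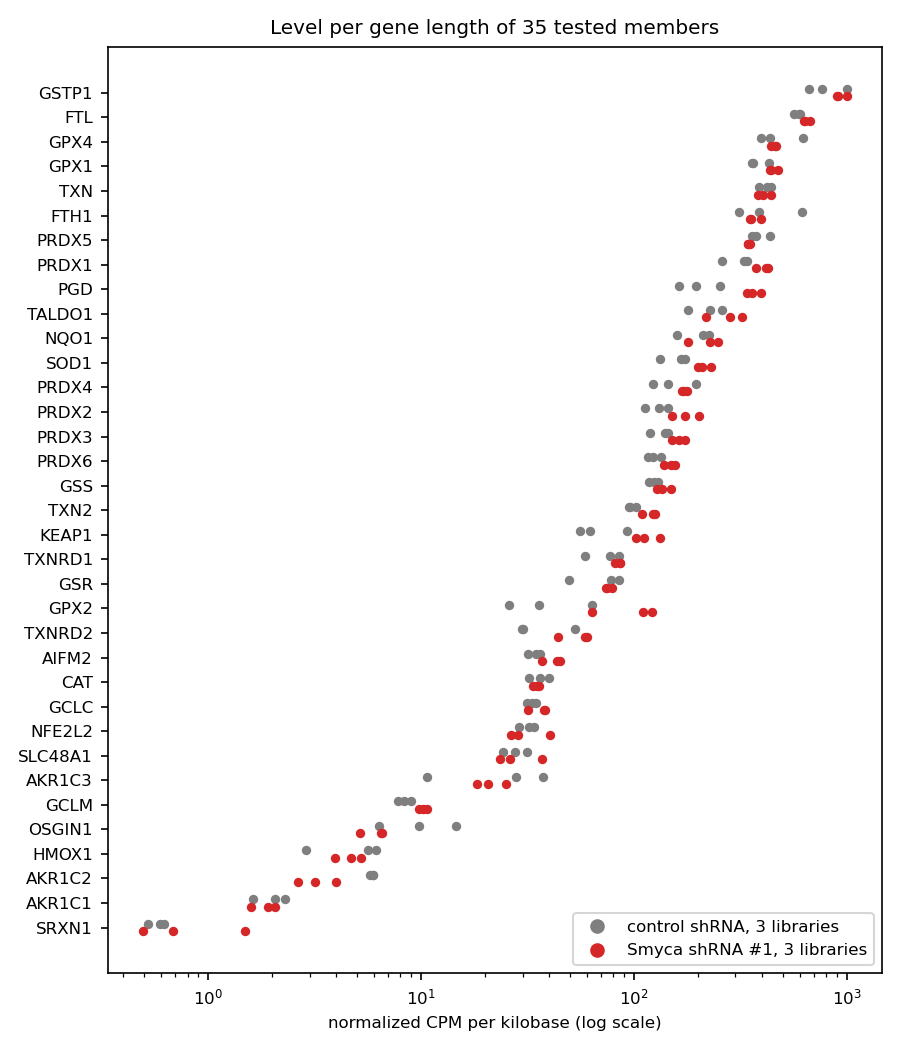
Normalized CPM per kilobase of gene length (x axis, log scale) of the 35 tested members (y axis) in each of the 3 control (grey) and 3 *Smyca* knockdown (red) libraries, ordered by mean level. GSTP1 is at the top, with means of 812 and 936, and SRXN1 at the bottom, with 0.58 and 0.89.

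Levels per gene length spanned a wide range. GSTP1, FTL, GPX4 and FTH1 led in the control, at 812, 588, 485 and 439 normalized FPKM. GPX4 and FTH1, whose control SD were 122 and 159, did not differ beyond their spread. At the other end SRXN1 stood at 0.58, AKR1C1 at 1.99, HMOX1 at 4.89 and AKR1C2 at 5.88. NFE2L2 stood at 31.6 and KEAP1 at 70.2 in the control, and at 31.9 and 116 in the knockdown. The spread between control libraries was largest for AKR1C3 (coefficient of variation 53.7%), GPX2 (46.2%) and OSGIN1 (40.5%) among tested members, and smallest for AKR1C2 (1.72%).

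By the counts, control replicate 3 stood apart from the other control libraries over all genes. The median chi-square per gene, which compares the counts of a pair of libraries with their totals, was 13.3 and 9.80 between it and control replicates 1 and 2, but 3.36 between those. Knockdown replicate 3 stood apart in its group in the same way, at 7.56 and 7.23 against 3.345 between the other knockdown libraries. With the FPKM reads, control replicate 2 was at 0.927 from control replicate 3, 13.9 from control replicate 1 and 10.6 from its own counts. Which control library stood apart thus depended on the column used for control replicate 2. Among members, control replicate 3 was the lowest of the 6 libraries for NQO1, HMOX1, TXNRD1, GCLM, GSS, GSR, TALDO1, GPX2, CAT, AKR1C3, FTH1, FTL and AIFM2, and the highest of the 6 for PRDX4, PRDX5, GPX4 and AKR1C2. Other genes differed in control replicate 3 too: the summed level of 15 hypoxia-inducible genes was 5336, 2862 and 1642 normalized CPM in the control and 2051, 1956 and 1582 in the knockdown, and all 15 were higher in the control by fold change. That of 15 immediate-early genes was 3406, 2699 and 4672 against 1832, 1439 and 1443. Their part in the member values was not tested.

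The members were set beside 107 other genes of the same pathways, of which 95 were tested. The median log2 fold change of these was -0.03, and 56 (58.9%) were higher in the knockdown, against 46.6% of all genes. At an unadjusted p under 0.05, 6 (6.32%) were higher in the knockdown and 8 (8.42%) in the control, against 8.74% and 10.4% of all genes, and none was a DEG by edgeR's quasi-likelihood test. The groups did not overlap in 15 genes that were higher in the knockdown (15.8%, against 12.5% of all genes). They also did not overlap in 7 that were higher in the control (7.37%, against 12.4%).

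Among NRF2 partners and degradation factors, MAFF, a small MAF protein that pairs with NRF2 and is itself stress-inducible, differed most. It measured 106, 63.4 and 65.1 normalized CPM in the control and 35.7, 26.5 and 42.9 in the knockdown, without overlap (log2 fold change 1.16, SE 0.25, edgeR quasi-likelihood adjusted p = 0.111). MAFG and MAFK, the other small MAF genes, had log2 fold changes of -0.02 and 0.51 and no unadjusted p under 0.05. DPP3, a peptidase that can bind KEAP1 in place of NRF2, measured 111, 129 and 130 in the control and 165, 199 and 172 in the knockdown (log2 fold change -0.53, SE 0.15, edgeR quasi-likelihood adjusted p = 0.132). BACH1, a repressor of HMOX1, and CUL3 did not pass, at 0.43 and -0.25.

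Of 27 tested further NRF2 targets, 17 were higher in the knockdown, but only ALDH3A1 had an unadjusted p under 0.05 in that direction. ALDH3A1, an aldehyde dehydrogenase, measured 4.20, 6.15 and 5.25 normalized CPM in the control and 15.8, 16.8 and 5.74 in the knockdown, and knockdown replicate 3 fell inside the control range (log2 fold change -1.29, SE 0.40, edgeR quasi-likelihood adjusted p = 0.151). ABCC3, an organic anion exporter, NAMPT, an enzyme of NAD synthesis, and PTGR1, an alkenal reductase, were higher in the control at log2 fold changes of 0.76, 0.62 and 1.62, but the groups overlapped in each.

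In glutathione use and turnover, 15 of 25 were higher in the control. GGT7, of the gamma-glutamyltransferase family, and CTH, which makes cysteine from cystathionine, had unadjusted p-values under 0.05, at log2 fold changes of 0.59 and 1.07. SLC7A11, the cystine importer, measured 51.8, 47.5 and 61.4 normalized CPM in the control and 65.5, 21.3 and 55.8 in the knockdown, with knockdown libraries above, below and within the control range. SLC7A11 and the other genes named outside the members without an unadjusted p under 0.05 were chosen after their values had been seen.

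Of the thiol repair genes, 13 of 18 were higher in the knockdown. MSRB1, a methionine sulfoxide reductase, measured 44, 58.6 and 50.1 normalized CPM in the control and 64.5, 92.2 and 91.8 in the knockdown (log2 fold change -0.70, SE 0.19, edgeR quasi-likelihood adjusted p = 0.129), and NXN, nucleoredoxin, had a log2 fold change of -0.52. GLRX, cytosolic glutaredoxin, was opposite, with 54.6, 46.8 and 29.97 in the control and 25.7, 22.7 and 23.9 in the knockdown (log2 fold change 0.86, SE 0.22, edgeR quasi-likelihood adjusted p = 0.126).

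**Figure D4:**
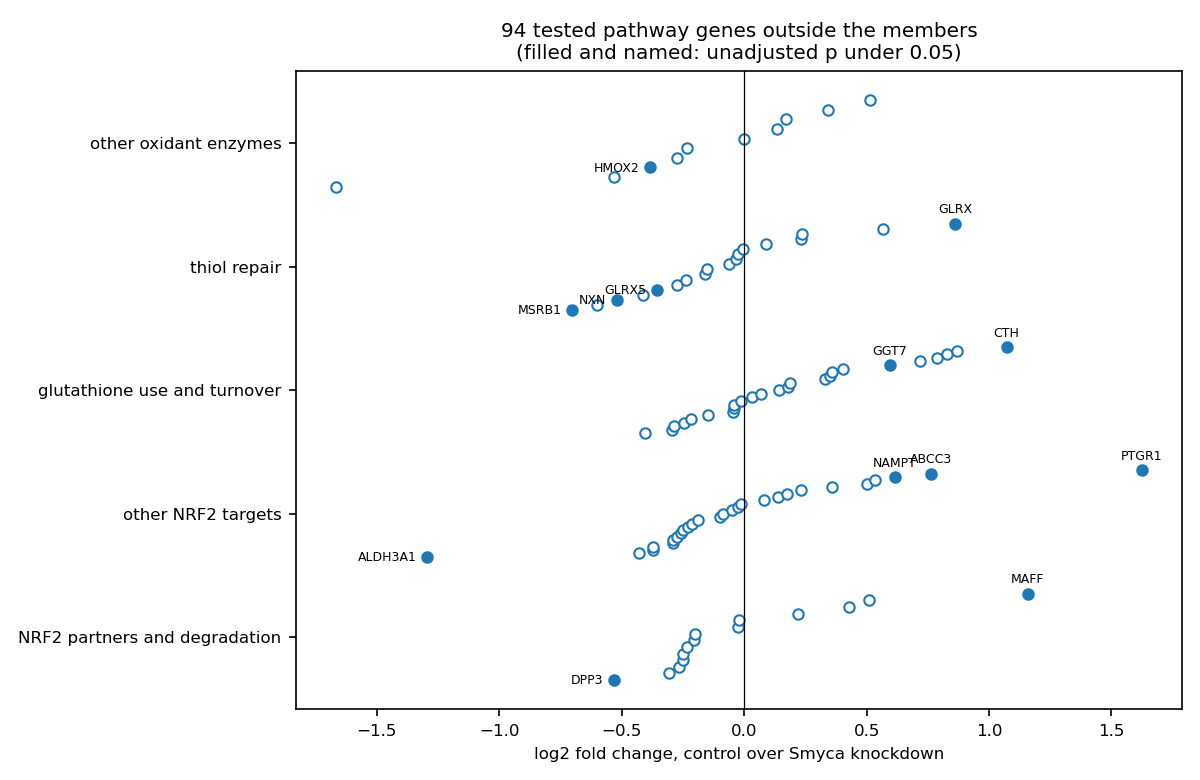
Log2 fold change (control over *Smyca* knockdown, x axis) of 94 of the 95 tested pathway genes outside the members, by role (y axis); filled, named points have an unadjusted p under 0.05 in the edgeR fit of 3 control and 3 knockdown libraries. The named points lie on both sides, from ALDH3A1 at -1.29 to PTGR1 at 1.62, with 6 on the left and 7 on the right.

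The 8 members with the smallest p-values kept their direction. KEAP1, GPX2, PGD, SOD1, PRDX1 and PRDX2 stayed higher in the knockdown, and OSGIN1 and AKR1C2 in the control, in each of the 13 alternative fits. SOD1 had an unadjusted p under 0.05 in 10 of them and OSGIN1 in 6. At an unadjusted p under 0.05, 13 members passed without control replicate 3, where 29.6% of all genes did, and 4 without control replicate 1 or knockdown replicate 2, where 11.2% and 10.8% did. With all 6 libraries 8 members and 19.2% of all genes passed, so the members moved as all genes did.

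**Figure D5:**
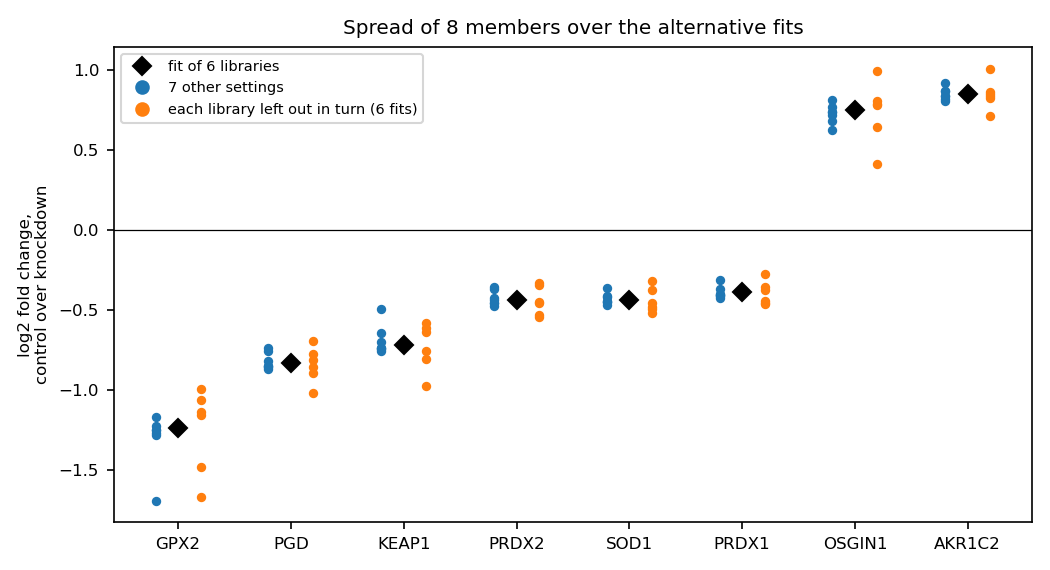
Log2 fold change (control over *Smyca* knockdown, y axis) of the 8 members with an unadjusted p under 0.05 (x axis) in the fit of all 6 libraries (black), under 7 other settings (blue) and with each library left out in turn (orange). No point crosses 0, and the points of GPX2 are the most spread, from -1.69 to -0.99.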

How the data were processed

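Per the labels and the study's methods, rRNA-depleted RNA was made into strand-specific paired-end libraries, reads were mapped to GRCh38 with TopHat2 2.0.12 and counted with HTSeq, whose strand setting is not given in the sources used here. The authors deposited raw read counts per Ensembl gene and FPKM values for each library. Only counts were tested. The deposited FPKM values served to derive gene lengths, to check the counts and, for control replicate 2, to recover whole reads (100% of values under 200 reads within 0.05 of a whole number, 16759253 in all).

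Symbols came from GENCODE release 44 (57532 of 58302 identifiers). Counts were fitted in R 4.3.3 with edgeR 4.0.16 (TMM, filterByExpr, quasi-likelihood test of 3 control against 3 knockdown libraries) over 15075 genes, with Benjamini-Hochberg adjustment. The study used DESeq, which was not used here. The biological coefficient of variation was 25.2% over both groups. Intervals are 95% intervals of the log2 fold change. The code was tested on simulated data.

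Members and lists were chosen with earlier results of these data known. Every member was named. Values per library were given for those with an unadjusted p under 0.05 or a fold of at least 1.5 and for a fixed set of regulators and marker targets, and the 12 other pathway genes with the smallest p were to be named. Results of 3 genes outside the members are not reported here. Alternatives were RLE size factors, library totals, genes with 1 count or more in place of the filter, a minimum of 10 counts per library, DESeq2 1.42.0, the replicate number as a block, the recovered FPKM reads, an adjusted p under 0.1 and each library left out in turn. For the other pathway genes, the RLE, library total, filter and FPKM read fits were added after seeing the data.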

Additional observations from a re-analysis of the deposited data

How the results depend on the processing

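No member was a DEG by edgeR's quasi-likelihood test, although 8 had an unadjusted p under 0.05. The count of DEGs was 3 without a filter and 3 with DESeq2, and 0 to 4 with single libraries left out. The count of members at an unadjusted p under 0.05 was 5 with library totals (18.9% of all genes) and 4 to 13 with single libraries left out (10.8% to 29.6% of all genes). The median log2 fold change was -0.085 with library totals and -0.24 with the FPKM reads of control replicate 2. The count of other pathway genes at an unadjusted p under 0.05 was 25 without a filter and 8 to 25 with single libraries left out. Without a filter, 916 of all genes were DEGs (3.01%), 820 with DESeq2 (5.44%) and 1628 without control replicate 3 (10.5%), against 4 (0.0265%).

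Of the 35 tested members, 25 kept their direction in all 13 alternative fits and 10 did not. NFE2L2 turned to 0.0513 with library totals, 0.0041 with at least 10 counts and 0.0099 with the block, and lay between -0.14 and 0.19 with single libraries left out. With the FPKM reads HMOX1 turned to -0.26, CAT to -0.0409, AKR1C1 to -0.24, AKR1C3 to -0.39 and SLC48A1 to 0.0461, and SLC48A1 turned to 0.0093 with library totals. TXN turned to -0.01 without a filter. With single libraries left out, HMOX1 lay between -0.11 and 0.35, GSR lay between -0.25 and 0.0939, TXN lay between -0.034 and 0.0773, GPX4 lay between -0.14 and 0.21, CAT lay between -0.0262 and 0.12, AKR1C1 lay between -0.0109 and 0.23, AKR1C3 lay between -0.15 and 0.61, FTH1 lay between -0.0662 and 0.44 and SLC48A1 lay between -0.20 and 0.15. The causes were not tested.

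The replicate number as a block gave 7 members at an unadjusted p under 0.05 (17% of all genes), 15 other pathway genes, 0 DEGs among members or all genes and a median of -0.19. Deviations of same-numbered libraries correlated at 0.0536, 0.0938 and 0.0207, and those of differently numbered libraries at -0.142 to 0.0552. All were weak, so the numbers were not taken as pairs.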
